A study of Mus musculus with 5 samples.

Results

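The cells described here were Col2a1+Acan+ cells of the mouse temporomandibular joint (TMJ) disc, that is, single cells with at least 3 unique molecular identifiers (UMIs, each a counted RNA molecule) of Col2a1, at least 1 UMI of Acan and 0 UMIs of the endothelial genes Cdh5 and Pecam1, the myeloid gene Tyrobp and the mural gene Rgs5. The rule also asked for at least 1000 UMIs in the cell and at most 30% of them from mitochondrial genes. It found 601 cells among the 49188 cells that met the UMI and mitochondrial limits, out of 51948 barcodes in all. Col2a1 (chr15:97975602-98004695, minus strand, GRCm38) encodes the chain of type II collagen, and Acan (chr7:79053483-79115099, plus strand) encodes aggrecan. The cells were chosen by the levels of these 2 genes, which are therefore given below as a description only.

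Chondrocytes build cartilage from type II collagen fibrils that carry collagens IX and XI, and fill it with aggrecan, which the link protein Hapln1 ties to hyaluronan. The transcription factor SOX9, with SOX5 and SOX6, drives that gene program, and chondrocytes that enlarge and mineralize their matrix turn on type X collagen, alkaline phosphatase and the mineral-binding sialoproteins Ibsp and Spp1. The TMJ disc is the fibrocartilage pad that separates the bones of the jaw joint, made mainly of type I collagen by fibroblast-like cells, and scattered cells with chondrocyte genes are known in it.

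Whole discs of C57BL/6 mice labelled WT were dissociated with enzymes and loaded on the 10x Genomics platform, with 1 library per condition. The 4 uninjured libraries came from mice 3 days (3 d), 3 weeks (3 w), 16 weeks (16 w) and 78 weeks (78 w) old, and the study's methods name male mice at the last 3 ages and pooled pups of both sexes at 3 d. The injured library came from mice whose disc had been punctured with a needle at the anterior band when they were 5 weeks old and which were killed 2 weeks after that, at 7 weeks, with no uninjured library of that age; the labels call these mice WT as well, while the study's methods describe the injury in mice with a tamoxifen-inducible Myh11 Cre and a tdTomato reporter. Total counts were 125130270 UMIs at 3 d, 125427849 at 3 w, 88998394 at 16 w, 105309834 at 78 w and 31585993 in the injured library. With 1 library a condition there was no replicate check, so no p-value is given, and every interval below is a 95% interval that covers counting error only, not the spread between mice.

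The injured library stood apart in sex-linked genes. Over all its cells Xist, which is transcribed from the inactive X chromosome of females, was at 646 CPM (UMIs of a gene for each 1000000 UMIs of the summed cells), and Ddx3y, Kdm5d and Eif2s3y of the Y chromosome had 0 UMIs, whereas Xist was at 0.0878, 0.337 and 0.124 CPM and Ddx3y at 148, 123 and 116 CPM at 3 w, 16 w and 78 w. At 3 d both were present, with Xist at 877 CPM and Ddx3y at 29.96 CPM. Injury, age, depth and sex therefore cannot be told apart in any comparison of the injured library. The study's methods place the Myh11 Cre transgene on the Y chromosome and name only males for tracing with it. In the injured library Ddx3y, Kdm5d and Eif2s3y of that chromosome had 0 UMIs. Between 96 and 138 barcode strings of a library occurred in another library too, and 0 of the 601 Col2a1+Acan+ cells had a barcode in common with one of another library.

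The share of Col2a1+Acan+ cells was lowest at 3 d and highest at 78 w. At 3 d they numbered 34 of 13620 cells (0.2496%, exact binomial interval 0.173 to 0.349), at 3 w 48 of 9300 (0.516%, 0.381 to 0.684), at 16 w 116 of 8694 (1.33%, 1.10 to 1.60) and at 78 w 318 of 9964 (3.19%, 2.86 to 3.56). In the injured library they were 85 of 7610 (1.12%, 0.893 to 1.38), an interval that overlapped that of 16 w and lay above that of 3 w. A minimum of UMIs is met more easily in a deep cell, and the median cell of the injured library held 3529.5 UMIs against 8170 to 12556 in the other libraries. After each cell was thinned to 3000 UMIs, with shallower cells left out (1228, 260, 265, 359 and 2839 cells in the order 3 d, 3 w, 16 w, 78 w, injured), the shares were 0.00807%, 0.122%, 0.451%, 1.52% and 0.922%, so that 78 w remained highest and the injured library stood second.

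The same minimum was counted in endothelial cells, which should not make type II collagen. Among cells with both Cdh5 and Pecam1, in the same order of libraries, 0 of 798, 1 of 699, 3 of 515, 5 of 567 and 1 of 175 met the same Col2a1 and Acan minimum (0%, 0.143%, 0.583%, 0.882% and 0.571%), at median depths of 7502.5, 6132, 5944, 5346 and 2637 UMIs, against 13216.5, 20402, 16520.5, 16845.5 and 6125 UMIs in Col2a1+Acan+ cells. The upper ends of their exact intervals were 0.461%, 0.794%, 1.69%, 2.05% and 3.14%. Most Col2a1 UMIs of these endothelial cells sat in 1 barcode from 3 w on, 16 of 19, 41 of 59, 528 of 626 and 18 of 22, against 2 of 22 at 3 d. With cells thinned to 3000 UMIs, 0 of 409 endothelial cells at 78 w met the minimum (upper end 0.898%) beside 1.52% of all cells, and with cells thinned to 1000 UMIs 0 of 218 (upper end 1.68%) beside 0.442%. At the other ages and after injury the share of Col2a1+Acan+ cells was below the upper end in endothelial cells at each of these depths.

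**Figure D1:**
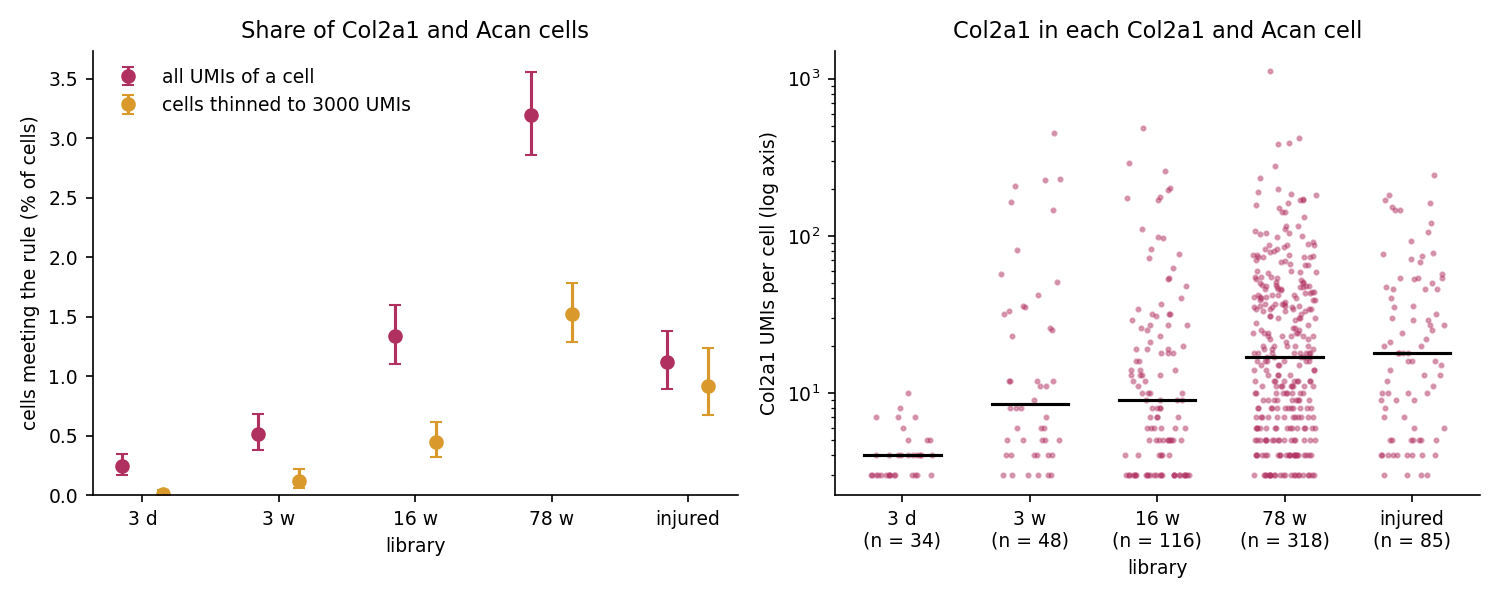
Share of Col2a1+Acan+ cells among the cells of each library, with all UMIs and with cells thinned to 3000 UMIs (left, percent, exact 95% binomial intervals, linear axis from 0), and Col2a1 UMIs in each Col2a1+Acan+ cell (right, log axis, 1 point a cell, line at the median). The share reached 3.19% at 78 w, and the median Col2a1 count per cell went from 4 at 3 d to 18 in the injured library.

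Col2a1, which the rule used, varied widely from cell to cell. Its lowest, median and highest counts per cell were 3, 4 and 10 UMIs at 3 d, 3, 8.5 and 449 at 3 w, 3, 9 and 489 at 16 w, 3, 17 and 1120 at 78 w, and 3, 18 and 244 in the injured library. Cells with 50 or more Col2a1 UMIs numbered 0 of 34, 9 of 48, 17 of 116, 67 of 318 and 21 of 85. At 3 d, then, 33 of the 34 cells had fewer than 10 Col2a1 UMIs. Summed over the cells of a library, Col2a1 was at 279, 1644, 1754, 2081 and 4982 CPM, and Acan at 164, 183, 386, 550 and 340 CPM.

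Cells just inside and just outside the rule are described by Hapln1 and Chad at the ages with most cells. At 16 w, 26 cells had exactly 3 Col2a1 UMIs and 20 otherwise eligible cells had 2, with Hapln1 at 239 and 219 CPM and Chad at 11032 and 11665 CPM. At 78 w the corresponding groups held 23 and 33 cells, with Hapln1 at 256 and 283 CPM and Chad at 5107 and 7059 CPM.

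The chondrocyte genes that the rule did not use were compared with the other stromal cells of the same library. Those cells met the same limits, had at least 3 UMIs summed over Col1a1, Col1a2, Col3a1 and Dcn, and numbered 10343, 7282, 7132, 7781 and 6273 in the order 3 d, 3 w, 16 w, 78 w, injured, which is the order of every list of 5 values below. Each level is the CPM of the summed cells of a group, and each ratio is that of 2 such levels with an exact Poisson interval.

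The collagens that accompany type II collagen were higher in Col2a1+Acan+ cells in every library in which they were well counted. Col11a2, a chain of type XI collagen, was at 15.4, 141, 77.7, 120 and 134 CPM in Col2a1+Acan+ cells and at 3.38, 17.3, 5.22, 10.1 and 14.9 CPM in other stromal cells. The ratio was 4.56 (1.95 to 9.10), 8.17 (6.96 to 9.54), 14.9 (12.3 to 17.9), 11.8 (10.7 to 13.1) and 8.98 (7.02 to 11.4). Col11a1, which forms the same trimer, was at 347, 959, 266, 267 and 696 CPM, 2.48 to 4.89 times the stromal level. Both chains thus kept their direction at each age and after injury, though at 3 d Col11a2 had a UMI in only 5 of 34 cells. Col9a3 of type IX collagen was at 235, 314, 145, 94.6 and 145 CPM, 4.16 to 9.58 times the stromal level. Its partner chains were scarce at the older ages, Col9a1 at 3.85, 33.5, 1.86, 2.78 and 4.68 CPM and Col9a2 at 65.5, 32.7, 3.72, 3.92 and 12.5 CPM. All 3 chains of type IX collagen were lower at 16 w and 78 w than at 3 w.

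Among the proteins that organize the aggrecan-rich matrix, Hapln1 (chr13:89539796-89611652, plus strand) was at 100, 290, 377, 479 and 226 CPM against 46.1, 109, 79.1, 105 and 85.8 CPM in other stromal cells. The ratio was 2.17 (1.62 to 2.85), 2.67 (2.396 to 2.96), 4.76 (4.42 to 5.13), 4.55 (4.36 to 4.75) and 2.64 (2.22 to 3.12). Snorc (chr1:87470271-87475482, plus strand), a transmembrane proteoglycan of chondrocytes, had 0 UMIs at 3 d and then 255, 836, 663 and 542 CPM, against 6.51, 16.6, 9.80 and 17.2 CPM in other stromal cells from 3 w on. That made it 39.1, 50.3, 67.6 and 31.5 times higher, and endothelial cells held 0.523, 25.01, 51.2 and 32.9 CPM of it. Mia, a small protein secreted by cartilage, was at 55.8, 35.9, 228, 107 and 53.1 CPM, 1.83 to 14.4 times the stromal level, and was highest at 16 w.

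Chad (chr11:94565047-94569127, plus strand), the cartilage protein chondroadherin, was at 27.0, 5933, 13167, 7194 and 6414 CPM against 11.3, 1507, 3050, 1647 and 1425 CPM in other stromal cells. From 3 w on the ratio stayed between 3.94 and 4.50 in each library. At least 3 Chad UMIs were found in 1 of 34, 48 of 48, 116 of 116, 314 of 318 and 82 of 85 Col2a1+Acan+ cells and in 4097 of 7282, 4230 of 7132, 3821 of 7781 and 2354 of 6273 other stromal cells from 3 w on, so nearly every Col2a1+Acan+ cell after 3 d was one of a much larger population with Chad. Comp, the cartilage oligomeric matrix protein that both cartilage and tendon make, was at 50.1, 10474, 16979, 15000 and 5803 CPM, with a ratio to the stromal level of 0.940 at 3 d (0.614 to 1.38) and of 1.80 to 3.14 later. Cytl1 (chr5:37735519-37739820, plus strand), a secreted cytokine-like protein of cartilage, had 0 UMIs at 3 d and was at 1682, 15670, 10342 and 279 CPM from 3 w on.

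Of the chondrogenic transcription factors, 0 of 6, 7 and 5 tested were called higher at 16 w, 78 w and in the injured library, beside 1.07%, 1.56% and 0.351% of all genes tested. Sox9 was at 218, 310, 969, 847 and 1436 CPM against 178, 204, 678, 694 and 922 CPM in other stromal cells, ratios of 1.22 (1.01 to 1.47), 1.52 (1.37 to 1.68), 1.43 (1.37 to 1.49), 1.22 (1.19 to 1.26) and 1.56 (1.46 to 1.66). Sox5 was at 59.7, 292, 195, 198 and 133 CPM, below the stromal level in each library, and Sox6 was at 38.5, 79.8, 150, 150 and 71.8 CPM, 0.922 to 1.39 times it. No Sox9 ratio reached 2. Foxa3, a forkhead factor with too few UMIs to be tested, had 3, 11, 36 and 6 UMIs from 3 w on, 4.79 (0.955 to 14.8), 6.07 (2.88 to 11.6), 5.12 (3.38 to 7.59) and 13.1 (4.24 to 34.3) times the stromal level. Its relative Foxa2 had 7 UMIs in 6 cells at 78 w and 0 UMIs in the other libraries.

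Several defining genes of hyaline and growth plate cartilage were absent. Matn1 and Matn3 (matrilins), Ihh (the growth plate signal Indian hedgehog) and Panx3 (a channel of hypertrophic chondrocytes) had 0 UMIs in all 601 Col2a1+Acan+ cells, and Epyc was at no more than 18.1 CPM. Apart from the 2 genes of the rule, the label chondrocytic rested on type XI collagen, Hapln1, Snorc and Chad from 3 w on. From 3 w on a UMI of Cytl1 was found in 18 of 48, 114 of 116, 298 of 318 and 25 of 85 cells. At 3 d the label was borne out only in part. There Col11a2, with a UMI in 5 of 34 cells, and Hapln1 were above the stromal level, as given above, but Snorc and Cytl1 had 0 UMIs. The tendon genes Tnmd and Kera were at 212 and 154 CPM, 2.84 (2.33 to 3.43) and 5.45 (4.31 to 6.81) times the stromal level. The rest of the tendon list differed less or went the other way. Scx was at 1.54 (1.19 to 1.96), Mkx at 1.15 (0.525 to 2.19) and Thbs4 at 0.634 (0.539 to 0.740) times the stromal level. A UMI of the cell cycle genes Mki67 or Top2a was held by 11 of 34 cells against 1549 of 10343 other stromal cells (32.4% and 14.98%). The median depths were 13216.5 and 8049 UMIs, which such a share depends on.

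**Figure D2:**
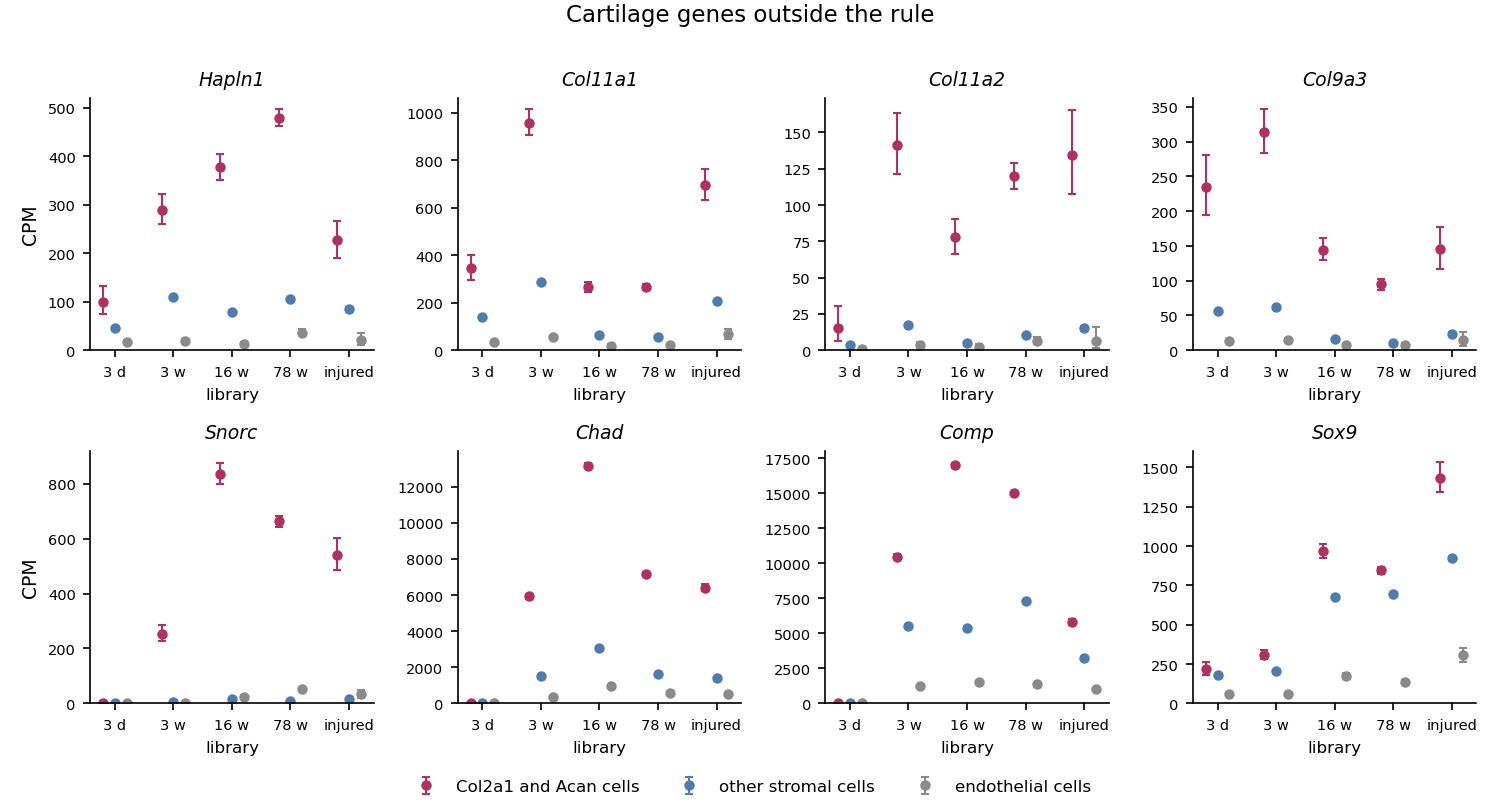
Levels of chondrocyte genes in Col2a1+Acan+ cells, other stromal cells and endothelial cells of each library (CPM, linear axes from 0, bars are exact 95% Poisson intervals). Chad and Snorc stood above the stromal level from 3 w on and were near or at 0 at 3 d, and Sox9 lay close to it throughout.

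Comparisons across all genes were made in the libraries with at least 50 Col2a1+Acan+ cells. The injured library was also set beside 3 w in counts of genes, given below. A gene was tested where the group with the higher level held at least 100 UMIs, and was called at a ratio of at least 2. Against other stromal cells, 99 genes were higher at 16 w (1.07% of 9267 tested), 160 at 78 w (1.56% of 10271) and 23 in the injured library (0.351% of 6550), and 1159 (12.5%), 1292 (12.6%) and 709 (10.8%) were lower, or 13.6%, 14.1% and 11.2% in either direction. The groups were also of unequal depth, 100 UMIs standing for a far higher level in 116 cells than in 7132, and the part of this in the unequal split was not tested. Of the genes called lower, 929, 864 and 644 had fewer than 20 UMIs in Col2a1+Acan+ cells. With a minimum of 100 CPM in place of the UMI minimum, the calls were 56 higher and 67 lower of 1379 genes at 16 w, 69 and 78 of 1418 at 78 w, and 33 and 51 of 1310 in the injured library. The median gene lay at a log2 ratio of -0.36, -0.30 and -0.35, and with levels rescaled by the median ratio of genes the calls were 167 higher and 549 lower at 16 w, 257 and 896 at 78 w, and 43 and 281 in the injured library.

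Without Col2a1, 4 of 4 cartilage collagens tested were higher at 16 w and at 78 w, with a median ratio of 6.34 and 7.23 beside 0.778 and 0.812 over all genes tested, and in the injured library Col11a1 alone was tested, at 3.38. Of the cartilage matrix proteins without Acan, 6 of 14 were higher and 3 lower at 16 w, 8 of 16 and 1 at 78 w, and 3 of 12 and 1 in the injured library, with a median ratio of 1.36, 1.75 and 1.40 beside 0.778, 0.812 and 0.784. The members that were lower included versican (Vcan), the large proteoglycan of loose connective tissue, at 27.0, 17.6 and 18.7 CPM against 84.8, 80.6 and 68.3 CPM. None of the enzymes of glycosaminoglycan synthesis was called higher, of 9, 11 and 3 tested, beside the same 1.07%, 1.56% and 0.351% of all genes, and Xylt1 in the injured library was at 2.43 (1.96 to 2.98) times the stromal level with 98 UMIs, just under the minimum.

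Over all genes, listed or not, the largest mean ratios in those 3 libraries were led, after Col2a1 and Acan, by Scrg1, Cd200, Chad, Cst3, Cytl1, Col11a1, Hapln1 and Lcn2. Genes that the files list under Rik names were left out of this ranking, Snorc among them, whose ratios given above were higher than those of all 8. Col11a2 and Col9a3, not tested in the injured library, are not in it either, and the Col11a2 ratios given above were higher than those of Scrg1. Scrg1, a secreted protein found in chondrocytes, was at 79.0, 497, 1118, 1355 and 919 CPM, 0.781, 2.86, 6.17, 6.15 and 3.37 times the stromal level. The surface glycoprotein Cd200 was at 7.70, 298, 580, 540 and 526 CPM, 6.04 times the stromal level in the injured library. Cst3, the protease inhibitor cystatin C, reached 23719 CPM at 78 w against 4079 CPM in other stromal cells. All 3 were above the stromal level in the other 4 libraries and had ratios below 1 at 3 d. There only the interval of Cst3 (0.781 to 0.940) lay below 1. Those of Scrg1 (0.560 to 1.06) and Cd200 (0.247 to 2.33, with 4 UMIs) took in 1. Among inhibitors of matrix metalloproteinases, Timp1 was 3.45, 2.88 and 3.12 times and Timp3 2.03, 2.12 and 1.80 times the stromal level at 16 w, at 78 w and in the injured library, while Timp2 was at 0.658, 0.591 and 0.633 times it. Mmp14, the membrane collagenase, was at 0.442, 0.438 and 0.314 times it.

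Some fibroblast and tendon genes were lower. Of 16 fibroblast collagens and small leucine-rich proteoglycans tested, 6 were lower at 16 w, 6 at 78 w and 4 in the injured library, and 1 (Eln, in the injured library) was higher, beside 12.5%, 12.6% and 10.8% lower over all genes tested. Col14a1, which decorates type I collagen fibrils, was at 60.5, 46.4 and 106 CPM against 294, 325 and 395 CPM, and the fibroblast receptor gene Pdgfra at 0.473, 0.374 and 0.423 times the stromal level. Of the 5 tendon genes 3 were lower in each of the 3 libraries, among them Thbs4 at 246, 334 and 273 CPM against 809, 1105 and 631 CPM. Type I collagen itself did not separate the cells, Col1a1 being at 1.31, 0.611 and 1.48 times the stromal level. The genes at the lower end of the ranking were Mfap4, Acta2, Myl9, Gpnmb, Sfrp2, Prss23, Tac1 and the globin genes Hbb-bs, Hba-a1 and Hba-a2. At 78 w Hbb-bs was at 3.27 CPM against 421 CPM, yet it had a UMI in 5.66% of Col2a1+Acan+ cells and 5.83% of other stromal cells. The smooth muscle actin gene Acta2 was at 3.72, 2.12 and 6.24 CPM against 73.7, 60.1 and 21.2 CPM.

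Markers of other cell types were summed in Col2a1+Acan+ cells, where the rule itself set Cdh5, Pecam1, Tyrobp and Rgs5 to 0. The 6 endothelial markers summed to 30.2, 53.1 and 34.3 CPM at 16 w, 78 w and in the injured library against 45.2, 42.2 and 42.8 CPM in other stromal cells, the most abundant being Plvap at 16 w and in the injured library and Fabp4 at 78 w. The sum at 78 w was above that of other stromal cells, and Fabp4 there was at 3.85 times their level. The 6 leukocyte markers summed to 3.72, 10.8 and 54.6 CPM against 6.78, 21.4 and 50.2 CPM, Lyz2 being the most abundant. The 5 mural markers summed to 10.2, 21.6 and 15.6 CPM against 207, 211 and 59.1 CPM, led by Tagln. Their part in the comparisons was not tested. Immediate early and heat shock genes, which respond to tissue dissociation as well as to signals in the tissue, were lower in 5, 3 and 2 of 8 cases, beside the same 12.5%, 12.6% and 10.8% over all genes. Fos was called lower at 16 w and 78 w, at 1702 and 714 CPM against 3889 and 2025 CPM, and Hspa1a and Hspa1b in the injured library, at 242 and 393 CPM against 592 and 894 CPM.

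Set beside stromal cells with at least 3 Chad UMIs, 78 genes were higher (0.908% of 8593) and 818 lower (9.52%) at 16 w, 110 (1.2% of 9150) and 454 (4.96%) at 78 w, and 11 (0.229% of 4799) and 473 (9.86%) in the injured library, or 10.4%, 6.16% and 10.1% in either direction. Against stromal cells with at least 3 Ibsp UMIs, 46 genes (1.01% of 4542) were higher and 80 (1.76%) lower at 16 w, and 104 (1.87% of 5548) and 144 (2.6%) at 78 w, or 2.77% and 4.47% in either direction. Col2a1+Acan+ cells were also counted among all cells with 0 UMIs of the 4 excluding genes, whether or not these met the stromal minimum. They made up 25 of 577, 57 of 482 and 139 of 555 of those with at least 3 Ibsp UMIs at 3 w, 16 w and 78 w (4.33%, 11.8% and 25.05%). Of those with fewer they made up 23 of 6769, 59 of 6778 and 179 of 7612 (0.340%, 0.870% and 2.35%). Ibsp+ cells were deeper, the other stromal ones having median counts of 12867 and 11406.5 UMIs at 16 w and 78 w against 9355 and 9584 over all other stromal cells, and the part of depth in this was not tested.

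Levels by class of Col2a1, which the rule used, are given as a description only. Within a library Hapln1, Col11a2 and Snorc were higher in the classes with more Col2a1, and the part of depth was not tested. At 16 w Hapln1 was at 236, 313 and 912 CPM in cells with 3 to 9, 10 to 49 and 50 or more Col2a1 UMIs, and at 78 w at 289, 493 and 700 CPM. Col11a2 was at 43.9, 73.0 and 186 CPM at 16 w and at 59.5, 108 and 217 CPM at 78 w. Snorc was at 499, 795 and 1904 CPM and at 183, 623 and 1351 CPM. Chad differed less, at 11834, 14606 and 14264 CPM at 16 w and 5767, 7426 and 8644 CPM at 78 w. Median UMIs per cell were 15484.5, 17277 and 19534 at 16 w and 15126, 16054 and 19842 at 78 w in the same classes.

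Several mineralization genes were higher in the Col2a1+Acan+ cells of 78 w than in those of 16 w. Of 4154 genes tested, 193 were higher at 78 w (4.65%) and 69 lower (1.66%), 6.31% in either direction, with a median log2 ratio of 0.16. With a minimum of 100 CPM the calls were 62 and 38 of 1337 genes, and with the median-ratio rescaling 129 and 105. In other stromal cells, 257 genes (2.17% of 11819) were higher and 116 (0.981%) lower (3.16% in either direction).

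Of the hypertrophy and mineralization list, 5 of 10 tested genes were higher at 78 w and 0 lower, with a median ratio of 2.71 beside 1.11 over all genes tested, and its 13 genes summed to 3086 CPM at 16 w and 15960 CPM at 78 w against 4117 and 7055 CPM in other stromal cells. Spp1 (osteopontin, chr5:104435118-104441050, plus strand), a phosphoprotein of mineralizing matrix, was at 30.8, 1089, 364, 6608 and 1079 CPM in the 5 libraries, 18.1 (16.9 to 19.5) times higher at 78 w than at 16 w, where the ratio in other stromal cells was 2.71. Ibsp (bone sialoprotein, chr5:104299171-104311469, plus strand), which nucleates mineral, had 0 UMIs at 3 d and was at 461, 563, 2549 and 82.7 CPM afterwards, 4.53 (4.27 to 4.80) times higher at 78 w than at 16 w. The Ibsp ratio was 2.07 without the tenth of cells with most Ibsp in each library. Alkaline phosphatase (Alpl, chr4:137741733-137796384, minus strand), which frees phosphate for mineral, had 1 UMI in 116 cells at 16 w and 348 UMIs in 318 cells at 78 w, or 0.465 and 56.8 CPM, against 0.428 and 3.37 CPM in other stromal cells and 16.5 and 23.2 CPM in endothelial cells.

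Type X collagen, the classical gene of hypertrophic chondrocytes, was seen chiefly in the 78 w library. Col10a1 (chr10:34389981-34397085, plus strand) had a UMI in 0 of 34, 1 of 48, 2 of 116, 50 of 318 and 0 of 85 Col2a1+Acan+ cells and in 7 of 10343, 8 of 7282, 4 of 7132, 26 of 7781 and 1 of 6273 other stromal cells. Its level was 9.31 CPM at 16 w and 65.2 CPM at 78 w, a ratio of 7.00 (4.47 to 11.6), the 20 UMIs of 16 w lying in 2 cells and 1 cell holding 27.3% of the UMIs at 78 w. The endothelial cells of the 78 w library also read 50.9 CPM of Col10a1, and 174 of their 193 UMIs sat in 1 barcode that held 528 of their 626 Col2a1 UMIs too. Mgp, the matrix Gla protein that inhibits calcification, was at 1622 and 5941 CPM, 3.66 (3.54 to 3.79) times higher at 78 w, and the parathyroid hormone receptor Pth1r was 2.61 times higher. The osteoblast genes Bglap and Bglap2 were at 12.1 and 15.4 CPM at 16 w and 73.0 and 52.4 CPM at 78 w, but Sp7 was at 0.465 and 4.25 CPM, and Ifitm5 and Phex at no more than 0.931 CPM. Bglap and Bglap2 were thus 6.04 and 3.41 times higher at 78 w, beside 5.24 and 8.63 times in other stromal cells.

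The promoters of 3 of these genes are shown because the genes were higher together at 78 w, each up to the base before the RefSeq or the GENCODE gene start, whichever comes first, 5′ to 3′ on the plus strand of GRCm38, from RefSeq promoters of GRCm38.p6. Capitals mark matches to the SOX motif ACAAAG or ACAATG, read on both strands (CTTTGT is ACAAAG on the other strand).
Ibsp, chr5:104299037-104299170: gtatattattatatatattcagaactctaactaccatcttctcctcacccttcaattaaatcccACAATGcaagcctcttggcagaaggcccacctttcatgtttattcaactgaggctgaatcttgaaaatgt
Col10a1, chr10:34389731-34389980: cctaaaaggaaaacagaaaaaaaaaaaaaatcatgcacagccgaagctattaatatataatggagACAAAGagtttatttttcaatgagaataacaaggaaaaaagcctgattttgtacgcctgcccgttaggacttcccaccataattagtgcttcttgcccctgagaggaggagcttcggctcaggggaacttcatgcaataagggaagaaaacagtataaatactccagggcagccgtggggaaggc
Spp1, chr5:104434861-104435110: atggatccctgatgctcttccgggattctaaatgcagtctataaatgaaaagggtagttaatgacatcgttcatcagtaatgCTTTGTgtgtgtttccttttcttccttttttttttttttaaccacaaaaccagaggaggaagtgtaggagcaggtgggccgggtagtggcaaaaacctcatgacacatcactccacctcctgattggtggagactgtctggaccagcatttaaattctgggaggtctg
Over the full promoter windows, 8 of 16 promoters of 11 genes of the hypertrophy list (50%) and 8 of 20 promoters of 13 genes of the chondrocyte list (40%) held either motif, beside 9394 of all 32851 promoters (28.6%). The matches of the hypertrophy list came from 5 genes and those of the chondrocyte list from 3, Sox6 alone giving 5 of the 8. A match is a description of letters and not of a bound site.

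At 78 w the mineralization genes were concentrated in the Col2a1+Acan+ cells with Ibsp. Cells with at least 3 Ibsp UMIs made up 25 of 48, 57 of 116 and 139 of 318 at 3 w, 16 w and 78 w (52.1%, 49.1% and 43.7%), 5 of 85 in the injured library and 0 of 34 at 3 d. Their share did not grow from 3 w to 78 w, while the level of Ibsp in them was 1039 CPM at 16 w and 5135 CPM at 78 w. In the 78 w library Alpl was at 115 CPM (103 to 127) in the 139 cells with Ibsp and at 0.323 CPM (0.00818 to 1.80) in the 179 cells without, a UMI of it being found in 35 and 1 cells. Col10a1 was at 124 and 7.76 CPM, in 38 and 12 cells. Bglap was at 145 and 2.26 CPM, in 28 and 6 cells, 1 of which held 40.9% of the UMIs. The collagenase gene Mmp13 was at 24.4 and 0.323 CPM, in 6 and 1 cells, 1 of which held 73.3% of the UMIs. Each of these genes was thus found in a minority of the cells with Ibsp, and in fewer cells without it. Spp1 was at 9734 and 3550 CPM, and Mgp went the other way, at 4355 and 7494 CPM. At 16 w the same split gave Spp1 at 399 and 326 CPM and Mgp at 1621 and 1624 CPM, while Alpl, with 1 UMI in all 116 cells, could not be compared. Other stromal cells with at least 3 Ibsp UMIs at 78 w held Alpl at 40.8 CPM, in 32 of 416 cells, and Col10a1 at 1.80 CPM, in 5 of 416. The cells with Ibsp were also deeper, with median counts of 19432 against 15139 UMIs at 78 w and 17953 against 15602 at 16 w, and the part of depth in the split was not tested.

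**Figure D3:**
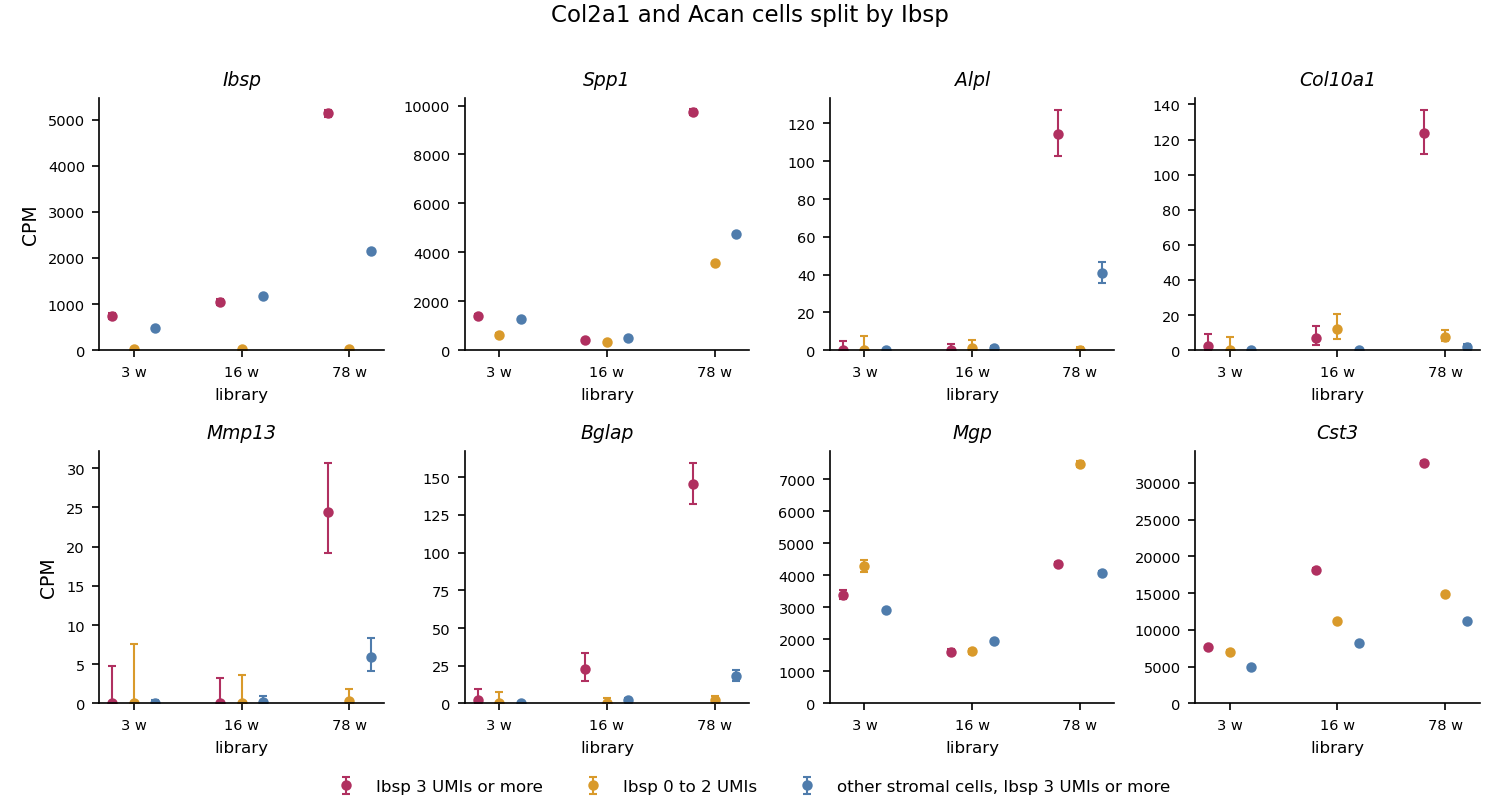
Levels of mineralization and matrix genes in Col2a1+Acan+ cells with at least 3 Ibsp UMIs, in those with 0 to 2, and in other stromal cells with at least 3 Ibsp UMIs, at 3 w, 16 w and 78 w (CPM, linear axes from 0, exact 95% Poisson intervals). At 78 w Alpl was at 115 CPM in the first group and 0.323 CPM in the second, and at 16 w it had 1 UMI in all 116 cells.

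Genes outside the mineralization list were higher at 78 w as well. The genes with the largest ratios, besides Alpl and Spp1, were Lrg1, Adamts18, Chst1, Pcsk5, F5, Car8, Sfrp4 and Prss50. Pcsk5, a proprotein convertase, was at 17.2 and 340 CPM, 19.7 (14.3 to 28.1) times higher, and 5.47 times higher in other stromal cells. F5, coagulation factor V, was at 8.84 and 136 CPM, and Lrg1, a secreted leucine-rich glycoprotein, at 1.86 and 58.0 CPM. Car8 had 0 UMIs at 16 w and 126 at 78 w, at least 14.7-fold higher against a floor of 3 UMIs over the group. Adamts18, Chst1 and Prss50 had 1, 3 and 1 UMIs at 16 w and were at 37.4, 28.7 and 17.6 CPM at 78 w. Of the listed genes, the proteoglycan lumican (Lum) was at 128 and 1219 CPM, the serine protease Htra1 at 370 and 1779 CPM, Cilp at 1088 and 2787 CPM and complement C3 at 42.8 and 129 CPM. In other stromal cells Lum, Htra1, Cilp and C3 were at 3.1005, 1.97, 1.04 and 2.45 times their 16 w level. Ucma, a Gla protein of cartilage, was 5.36 (3.70 to 8.04) times higher, which became 1.78 without the cells in the top 5% of UMI counts. Lubricin (Prg4), which coats joint surfaces, was at 9554 and 18118 CPM, a ratio of 1.90, which was not called, beside 1.59 in other stromal cells.

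Lower at 78 w were Camp, Igfbp3, Thbs1, Kcnk1, Cadm1, Gpm6b, Itih5, Rgs4, Hmox1 and Rnd3. Thbs1, the matricellular protein thrombospondin 1, was at 569 and 53.1 CPM, a ratio of 0.0933 (0.0823 to 0.106), and Hmox1, which breaks down heme, at 372 and 110 CPM while other stromal cells kept a ratio of 1.05. Camp, an antimicrobial peptide of neutrophils, had 104 UMIs at 16 w and 95.2% of them were in 1 cell. Among listed genes, Col1a1 and Col1a2 were at 0.455 (0.432 to 0.479) and 0.492 (0.477 to 0.507) times, Mia at 0.471 and Fos at 0.419. In other stromal cells Fos was at 0.521 times its 16 w level. Of the cartilage collagens, 0 of 5 tested were called in either direction between these ages, a count that takes in Col2a1, which the rule used. Of the cartilage matrix proteins 3 of 15 were higher and 2 lower, beside 4.65% higher and 1.66% lower, 6.31% in either direction, over all genes tested. Genes that differed less than 2-fold included Hapln1 at 377 and 479 CPM, Col11a1 at 266 and 267 CPM, Sox9 at 969 and 847 CPM and Comp at 16979 and 15000 CPM.

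**Figure D4:**
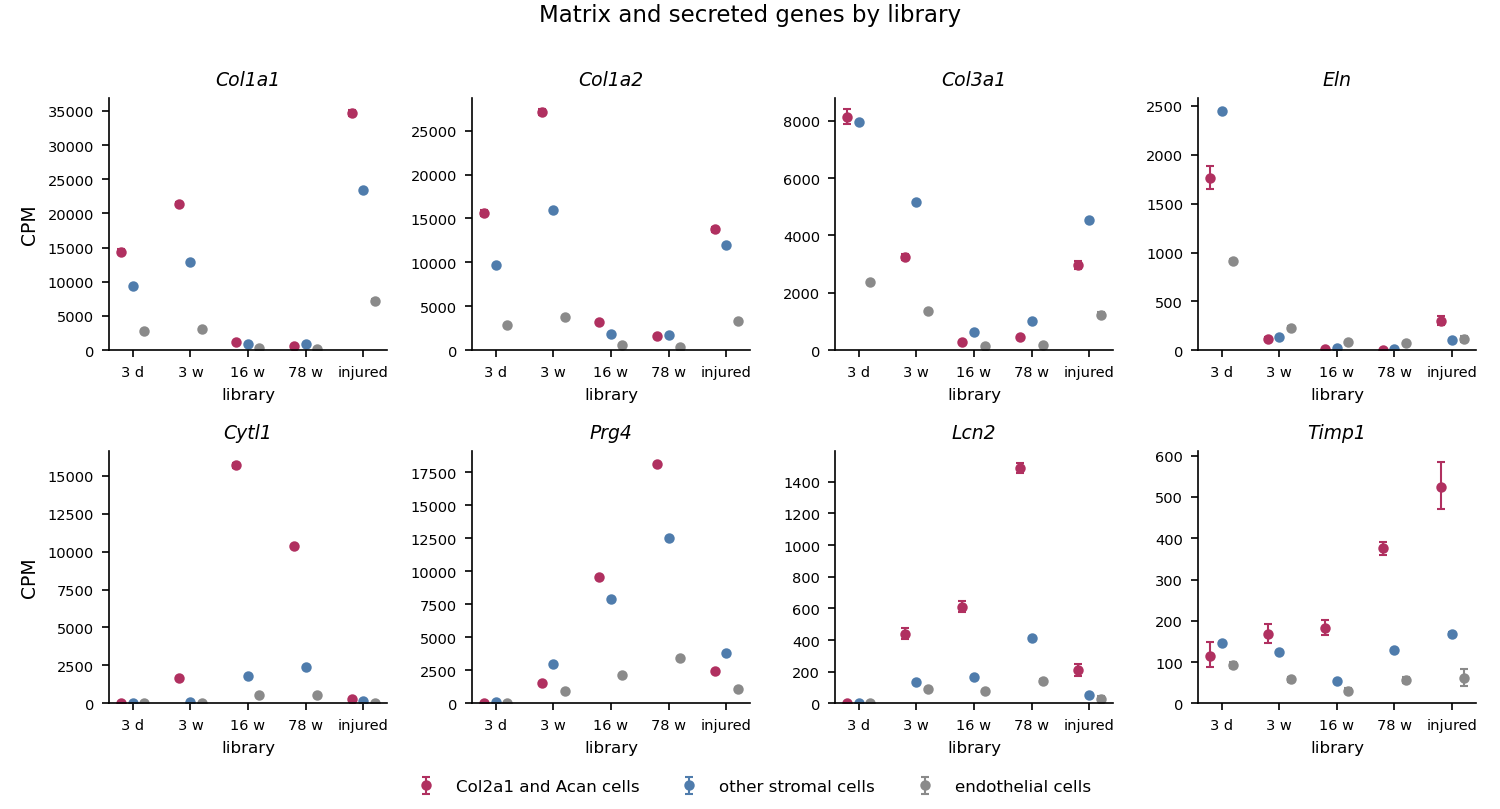
Levels of matrix and secreted genes in Col2a1+Acan+ cells, other stromal cells and endothelial cells across the 5 libraries (CPM, linear axes from 0, exact 95% Poisson intervals). Cytl1 and Prg4 were at 15670 and 9554 CPM at 16 w, and at 279 and 2432 CPM in the injured library.

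In the injured library the Col2a1+Acan+ cells were set beside 16 w, the nearest older age with enough cells. The 48 cells of 3 w were used for levels, and for counts of genes at least 2-fold above or below both 3 w and 16 w. Against 16 w, 182 of 2039 genes tested were higher (8.93%) and 495 lower (24.3%), 33.2% in either direction, and the split was 331 to 231 after median-ratio rescaling and 236 to 242 of 1421 genes with a minimum of 100 CPM, so the side with more genes changed with the setting. The median log2 ratio was -0.48. In other stromal cells, 607 (5.44% of 11160) were higher and 1601 (14.3%) lower (19.8% in either direction). The largest ratios upward were those of Xist, Col1a1, Eln, Col3a1, Spry2, Notch2, Serf1, Slc39a1, Atox1 and Ppic.

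Col1a1 and Col3a1, the main chains of type I and III collagen, were both far above 16 w in the injured library, in other stromal cells as well (25.5 and 7.13 times). Col1a1 was at 21421 CPM at 3 w, 1203 at 16 w and 34718 in the injured library, and Col3a1 at 3238, 280 and 2978 CPM. Elastin (Eln) had levels of 111, 11.2 and 303 CPM, and the injured level was 2.73 times that of 3 w. Of the 194 listed genes, 133 had at least 20 UMIs in one of these libraries, and 10 of them were at least 2-fold above and 4 at least 2-fold below both 3 w and 16 w, beside 3.77% above and 8.28% below over the 7261 genes with as many UMIs. Above both were Col2a1, which the rule used, Eln, Igf1, Postn, Mef2c, Timp1, Saa3, Sec61b and the globin genes Hba-a1 and Hbb-bs. Timp1 was at 168, 184 and 524 CPM. Below both were Cytl1, Ibsp, Lcn2 and the imprinted gene Dlk1. Cytl1 was at 1682, 15670 and 279 CPM, with a UMI in 25 of 85 injured cells against 114 of 116 at 16 w and 18 of 48 at 3 w, where 1 cell held 69.2% of the UMIs. Ibsp was at 461, 563 and 82.7 CPM. In other stromal cells, 178 listed genes reached the same count and 20 lay above and 13 below both, beside 4.2% and 7.31% over all genes with that count, Igf1, Postn and Sec61b above and Ibsp and Lcn2 below among them.

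Of the 21 cartilage collagens and matrix proteins with enough UMIs, Col2a1 and Acan left out, 13 lay between 3 w and 16 w in the injured library, 3 above both (Cilp, Fmod and Prelp) and 5 below both (Comp, Cytl1, Hapln1, Matn2 and Vcan). Cytl1 alone of them was beyond 2-fold, and 1 cell held 69.2% of its UMIs at 3 w. In other stromal cells Cytl1 was at 84.4 CPM at 3 w, 1779 at 16 w and 144 in the injured library. Chad was at 5933 CPM at 3 w, 13167 at 16 w and 6414 after injury, Snorc at 255, 836 and 542 CPM, Hapln1 at 290, 377 and 226 CPM, Col11a2 at 141, 77.7 and 134 CPM and Comp at 10474, 16979 and 5803 CPM. Sox9, at 310, 969 and 1436 CPM, lay above both. The injured level was 4.63 and 1.48 times those of 3 w and 16 w, beside 4.51 and 1.36 times in other stromal cells. Prg4 was at 1584, 9554 and 2432 CPM. The lowest ratios to 16 w, after Cytl1, were those of the metallothionein Mt2 (1116, 5413 and 197 CPM), Ddx3y, Tgm2, Avpr1a, Gadd45g, Omd, Ube2q2, Lepr and Ildr2. Omd, the small proteoglycan osteomodulin, was at 35.1, 289 and 21.9 CPM. Median UMIs per Col2a1+Acan+ cell were 20402, 16520.5 and 6125 in the same order, and no value here tells depth from injury.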

How the data were processed

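Discs were digested with Pronase and Collagenase P, and 3′ libraries were made on the 10x Genomics platform. The deposited matrices hold UMI counts per gene and cell barcode, which the authors produced with Cell Ranger (3.1 per the submitters' processing notes, 4.0.0 per the file headers) on mm10, with 27998 genes. Barcodes under 1000 UMIs or above 30% mitochondrial UMIs were dropped, no doublet caller was run, and doublets were limited only by the 4 excluding genes. Counts were summed per library and cell class and divided by the total. Ratios of sums carry exact Poisson intervals and shares carry exact Clopper-Pearson intervals. Named genes were the listed genes plus the 10 with the largest ratio in each direction per comparison, without mitochondrial, ribosomal protein, Gm and Rik genes, counts under 3 being taken as 3. Pairwise comparisons across all genes between libraries needed 50 cells in each, which left out 3 d and 3 w. The 3 w cells were used all the same in the counts of genes at least 2-fold above or below both ages in the injured library. The cells and the gene lists were chosen with earlier results of these data known. Gene positions came from the GENCODE annotation of GRCm38. The count step was tested on simulated data. Python 3.11.15, numpy 2.4.6, scipy 1.17.1, pandas 2.3.3 and matplotlib 3.10.9 were used. Alternatives varied the cell filter, marker minimum, thinning, scaling, gene minimum and free RNA limit.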

Additional observations from a re-analysis of the deposited data

Results flagged for a closer look

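Eln was 2.79 times the stromal level in Col2a1+Acan+ cells of the injured library and 0.408 times it at 78 w, so the direction differed between libraries, a difference that was not tested. Fabp4 was at 3.85 times the stromal level at 78 w and 0.436 times it at 16 w, also untested, with endothelial cells at 3085 and 2328 CPM. Some barcodes met the Col2a1 and Acan minimum but carried Cdh5, Pecam1, Tyrobp or Rgs5 and were therefore left out, namely 7 of 41, 8 of 56, 15 of 131, 30 of 348 and 24 of 109 in the order 3 d, 3 w, 16 w, 78 w, injured.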

How the results depend on the processing

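With 1 library per condition, intervals leave out the spread between mice, and 34 to 318 cells a library limit every level. No paired analysis was possible because each group has 1 sample. In the order 3 d, 3 w, 16 w, 78 w, injured, the share of Col2a1+Acan+ cells was 0%, 0.151%, 0.541%, 1.85% and 0.263% with at least 10 Col2a1 and 3 Acan UMIs, and 0%, 0.0215%, 0.150%, 0.442% and 0.237% when cells were thinned to 1000 UMIs. Thinned to 3000 UMIs, it was 0.00807%, 0.122%, 0.451% and 1.52% in the 4 uninjured libraries. Without the cells in the top 5% of UMI counts it was 0.944% at 16 w, 2.37% at 78 w and 0.830% in the injured library. Genes past 2-fold numbered 1258, 1452 and 732 against other stromal cells at 16 w, 78 w and in the injured library, 262 between 78 w and 16 w, and 677 between the injured library and 16 w. Limited to genes above free RNA they numbered 389, 538, 188, 126 and 168. Median-ratio scaling gave 716 at 16 w and 324 in the injured library. A minimum of 20 UMIs gave 865 and 1971 in the comparisons between libraries, and 300 UMIs gave 119 and 230 there and 880 at 78 w against other stromal cells. Without high-UMI cells, injured against 16 w gave 369. Chosen after seeing the data, a minimum of 100 CPM gave 123, 147, 84 and 100 in the first 4 comparisons, depth-matched stromal cells gave 832 at 16 w and 771 at 78 w, and at least 10 Col2a1 UMIs gave 428 for injured against 16 w. Of 2735 values for 258 named-gene results, 2145 stayed within their error, 590 moved and 0 reversed. Not run for lack of cells were the stricter marker minimum in 4 of the comparisons across genes and thinning to 1000 UMIs in all of them.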

Other observations

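Some growth factor and inflammation genes were lower in Col2a1+Acan+ cells than in other stromal cells. Over all genes tested, 12.5%, 12.6% and 10.8% were lower at 16 w, 78 w and in the injured library. Of the IGF and imprinted growth genes, 3 of 7 were lower at 16 w, 4 of 7 at 78 w and 3 of 7 in the injured library, and 0 were higher. Igfbp5, which binds insulin-like growth factors, was at 787, 587 and 1107 CPM against 3290, 2727 and 3136 CPM. Of the complement and inflammation genes, 5 of 8, 5 of 8 and 2 of 5 were lower and 1 in each library was higher, Lcn2 each time. Saa3, an acute phase gene, was at 0.498 and 0.0441 times the stromal level at 16 w and 78 w, its 1 and 0 UMIs being taken as 3. In the injured library, where it had too few UMIs to be tested, it was at 49.9 CPM against 4.10 CPM, its 32 UMIs lying in 2 cells. The chemokine gene Cxcl12 was at 28.4, 52.8 and 18.7 CPM against 80.9, 148.9 and 49.2 CPM.

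Growth plate signalling genes gave 1 higher and 5 lower of 11 at 16 w, and 1 higher and 2 lower of 9 at 78 w, beside 1.07% and 1.56% higher and the shares lower given above over all genes. The higher one was Fgfr3, a receptor that restrains chondrocyte growth, at 63.8 and 56.4 CPM against 25.7 and 23.4 CPM. Pthlh, which keeps growth plate chondrocytes from maturing, was at 0.931 and 6.86 CPM against 31.8 and 33.9 CPM. No gene of the secretory pathway list was called in either direction, of 10 tested at 16 w, 11 at 78 w and 9 in the injured library.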
